A study of Homo sapiens with 4 samples.

Results

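Lowering MYCN and adding a let-7a mimic in the same neuroblastoma cells was compared with giving neither. The comparison set 1 library that received siMYCN with let-7a against 1 library that received siCon with miRCon, so it used 2 of the 4 libraries of the series. The other 2 libraries, siCon with let-7a and siMYCN with miRCon, served only to show what each agent gave alone and what adding both single changes would predict. Genes were taken where the mean over the 4 libraries was at least 20, which kept 5672 of 19826 gene rows (28.6%). A gene low in some libraries could pass through high values in others, on the treated or the control side.

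The cells were BE(2)C, a line established from a human neuroblastoma, and those of all 4 groups carried an introduced MYCN open reading frame (the line is labelled BE(2)C:MYCN-ORF). Each group received an siRNA, either the control siCon or siMYCN, and a miRNA mimic, either the control miRCon or let-7a. Polyadenylated RNA was taken 48 hours after transfection. The 4 groups shared the line, the introduced reading frame and the time of harvest, while agent doses and the number of clones or cultures were not given in the sources used here. With 1 library a group there was no replicate check on any difference, no test was made, and a fixed size stood in for one. Higher and lower below describe these libraries only.

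MicroRNAs of the let-7 family pair through their seed with sites in the 3′ untranslated region (3′ UTR) of target mRNAs and lower them. LIN28B blocks the maturation of let-7 precursors, and its own mRNA is a let-7 target, so each holds the other down. MYCN is a MYC-family transcription factor that pairs with MAX on E-box DNA, drives growth and replication genes, and marks aggressive neuroblastoma when its gene is amplified. Neuroblastoma arises from the sympathetic branch of the neural crest, where a circuit of noradrenergic transcription factors holds the neuroblast state and mature cells store peptides and catecholamines in dense-core granules.

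Values are here called TPM-like levels because, recovered from deposited natural logs, they sum to nearly the same total in each library. Whether they were scaled to gene length was not given in the sources used here. Differences are log2 fold changes of value + 1, a scale that understates the change of low genes. Levels over the gene rows summed to between 855611 and 861825 in each library, and between 14790 and 15294 genes were above 0. Read depth is unknown from such values, so no counting interval can be given. Transcripts of the mitochondrial genome took 31.7% of the total with both controls and 29.3% with both agents. Of 12 neuroblastoma markers, 11 passed the filter, and TH, the first enzyme of catecholamine synthesis, did not, at 6.01 with both controls and 10.7 with both agents. Of 18 mesenchymal and fibroblast markers, 7 passed the filter, and the list summed to between 844 and 1008 in every library. The summed levels of the epithelial, blood and glial markers were between 8.50 and 18.99 in every library. No marker of these last lists was above the filter, and CDH1 and FABP7 were listed at 0 in all 4. VARS and MRPS18B, which every cell uses to make proteins, were also listed at 0 in all 4, so an exact 0 may be a failed estimate and is not read here as a lack of such cells.

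MYCN itself, the target of the siRNA, was only slightly lower in the doubly treated library. Its level was 1449 with both controls, 1433 with let-7a alone, 1238 with siMYCN alone and 1197 with both agents. The combined log2 fold change was -0.27, or a level 17.3% lower, and nearly all of it was already present with siMYCN alone (-0.23). MYCN lies at chr2:15940564-15947007 (GRCh38, plus strand), and its row does not separate RNA of the introduced frame from that of the endogenous gene. The MYCN protein was not measured here.

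The other agent was let-7a, whose mature sequence (RefSeq, GRCh38.p14, locus MIRLET7A1 at chr9:94175962-94175983, plus strand) is shown first below, since its seed defines the sites discussed next. The sequences after it are the 8mer sites in the 3′ UTRs of IGDCC3, LIN28B and PRTG, and the shorter 7mer-A1 sites of DICER1, from GENCODE release 29 on GRCh38. They are shown because these 4 genes had the lowest combined values among the established let-7 targets that passed the filter. Capitals mark the seed in the miRNA (bases 2 to 8) and, in the 3′ UTRs, the bases of the site, all 5′ to 3′. The 24-base windows lie on the strand of the mRNA, at chr15:65328450-65328473, chr15:65328368-65328391 and chr15:65328217-65328240 for IGDCC3 (minus strand), at chr6:105078811-105078834 and chr6:105081420-105081443 for LIN28B (plus strand), at chr15:55619593-55619616 for PRTG (minus strand), and at chr14:95089135-95089158 and chr14:95087574-95087597 for DICER1 (minus strand).
hsa-let-7a-5p: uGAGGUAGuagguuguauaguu
IGDCC3 site 1: ttttggctctcagcacCTACCTCA
IGDCC3 site 2: gagcccgaatgcactcCTACCTCA
IGDCC3 site 3: atgtgaaagaaaatgtCTACCTCA
LIN28B site 1: tacccggttgcaaagtCTACCTCA
LIN28B site 2: tgtttacagcaaaaggCTACCTCA
PRTG site 1: cccctttgctgactatCTACCTCA
DICER1 7mer-A1 site 1: ggcactcttcacttaaaTACCTCA
DICER1 7mer-A1 site 2: cacttggtaccatgcttTACCTCA

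IGDCC3, an immunoglobulin superfamily membrane protein, was the lowest gene of the whole comparison. It stood at 71.2 with both controls, 38.9 with let-7a alone, 19.8 with siMYCN alone and 7.54 with both, a combined log2 fold change of -3.08. Each agent alone went with a lower value (-0.86 for let-7a and -1.80 for siMYCN), and the combined change lay -0.43 beyond their sum of -2.65. IGDCC3 (ENSG00000174498.13) spans chr15:65327127-65378040 on the minus strand, and its 3′ UTR holds the 3 full sites printed above.

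LIN28B, the let-7 blocker, was at 157, 96.5, 119 and 55.5 in the same order of libraries, a combined value of -1.49 with a departure from the sum of -0.38. It spans chr6:104936616-105083332 on the plus strand and was among the 15 lowest genes. DICER1, which cuts miRNA precursors to their mature length, was at 60.5, 47.2, 50.1 and 27.1. Its combined log2 fold change of -1.13 compares with -0.35 for let-7a alone and -0.27 for siMYCN alone, so the gene was past 2-fold in the doubly treated library and in neither singly treated one. PRTG, a neural tube protein of the same immunoglobulin family as IGDCC3, was at 40.2, 23.8, 29.6 and 21.5. Its combined value of -0.87 fell short of the sum by 0.29.

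The established let-7 targets leaned lower as a list, with 21 of 30 measured members below 0, beside 48.1% of all genes. Their median was -0.23, beside 0.014 over all 5672 genes. The list's median for siMYCN alone was 0.049 and for let-7a alone -0.15, and the combined values leaned -0.12 below the sums at the median. In the same order of libraries CDK6, a G1 kinase, was at 153, 143, 116 and 104, and IGF2BP1, a fetal mRNA-binding protein, at 71.8, 57.1, 77.4 and 52.1. CCND1, which encodes cyclin D1, went the other way, at 426, 398, 555 and 532. ARID3A, a DNA-binding regulator below the filter, was at 14.6, 8.99, 18.8 and 5.84, and the related ARID3B at 9.43, 6.39, 13.4 and 7.49. For ARID3A the library with siMYCN alone was the highest and the one with both agents the lowest.

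Genes of let-7 biogenesis and miRNA silencing had a median of -0.22 over 14 members, of which 11 were below 0 and the 2 past 1.5-fold, beside 4.35% of all genes at least 1.5-fold lower, were LIN28B and DICER1. The median was -0.11 at a mean of at least 50. DGCR8, the RNA-binding partner of DROSHA, had a combined value of -0.44 and KHSRP, which promotes let-7 processing, -0.43. AGO2, the slicer that holds the miRNA, was nearly level at 65.1, 63.4, 60.5 and 59.3.

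Across all genes the combined treatment gave 60 genes at least 2-fold higher and 47 at least 2-fold lower, or 1.06% and 0.829% of the 5672 genes. At 1.5-fold there were 286 higher (5.04%) and 247 lower (4.35%). The middle 95% of combined values ran from -0.73 to 0.75, with 51.9% above 0 and 48.1% below 0. The size rule passed 5 higher and 1 lower gene with let-7a alone and 23 higher and 26 lower with siMYCN alone, in comparisons that share the siCon with miRCon library. Low genes filled much of the list: 38 of the 60 higher and 33 of the 47 lower genes had a mean under 50. So did 2972 of all 5672 genes. At the threshold, KLHL5 was just inside on the higher side at 1.001 and SYF2 just outside at 0.985, and PDZRN3 and HDHD1 were the corresponding genes on the lower side at -1.002 and -0.986.

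**Figure D1:**
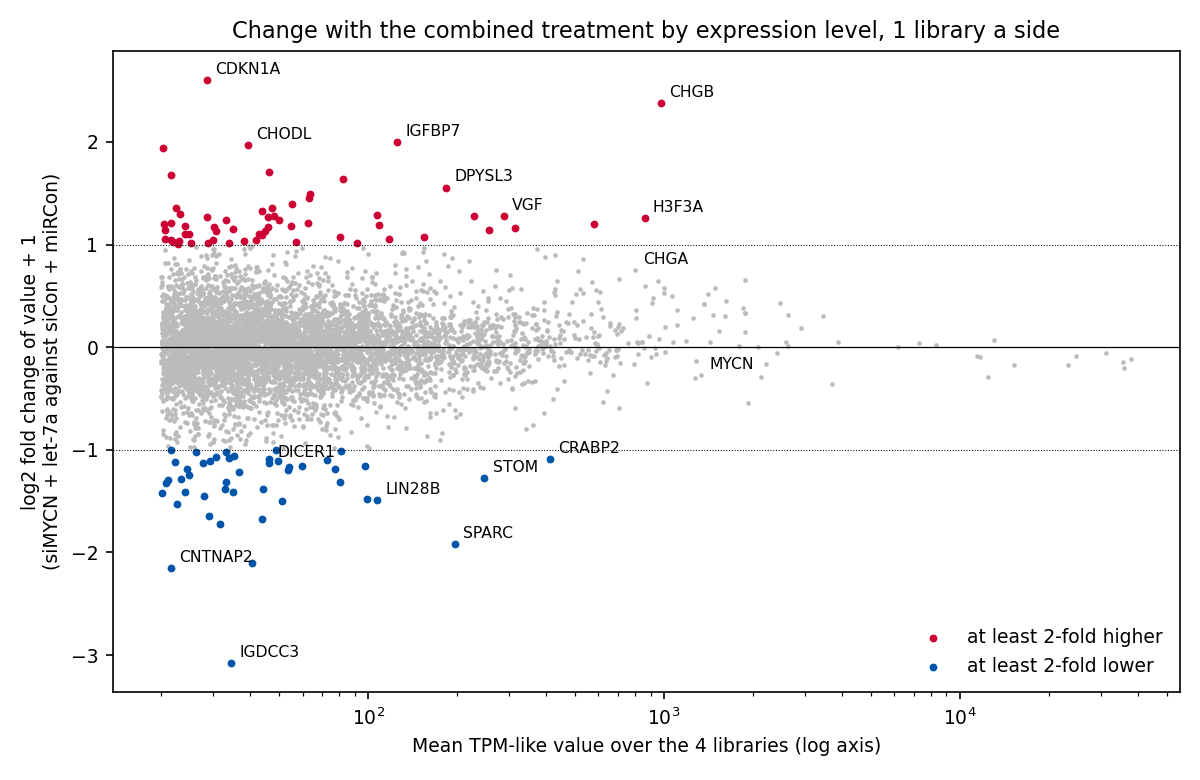
Combined log2 fold change of value + 1 (vertical axis, siMYCN with let-7a against siCon with miRCon, 1 library each) against the mean TPM-like value over the 4 libraries (log axis), 1 point a gene for 5672 genes. Red marks the 60 genes at least 2-fold higher and blue the 47 at least 2-fold lower; CHGB stands out among abundant genes at 2.38 and IGDCC3 is the lowest point at -3.08.

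CDKN1A, which encodes the cyclin-dependent kinase inhibitor p21, had the highest combined value of all. It was at 9.55 with both controls, 10.1 with let-7a alone, 31.1 with siMYCN alone and 63.1 with both, a log2 fold change of 2.60. With the let-7a mimic alone it hardly differed (0.071), while in siMYCN cells the same mimic went with a difference of 0.998, so the combined value stood 0.93 above the sum. CDKN1A spans chr6:36676460-36687339 on the plus strand.

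CHGB, the granule protein chromogranin B, came next, at 438, 557, 633 and 2275. Its combined log2 fold change of 2.38 compares with 0.35 for let-7a alone and 0.53 for siMYCN alone. The 3 other libraries lay between 438 and 633, and the doubly treated one stood far above all of them. CHGB spans chr20:5911430-5925361 on the plus strand.

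IGFBP7, CHODL, C7 and HGF were also among the 15 highest genes. IGFBP7, a secreted binding protein of insulin-like growth factors, was at 60.2, 79.8, 116 and 244 (2.00). CHODL, a membrane lectin of motor neurons, was at 18.97, 27.0, 33.2 and 77.3 (1.97). C7, a complement component, was at 27.5, 38.8, 27.0 and 91.7 (1.70), with siMYCN alone level with the controls. HGF, the ligand of the MET receptor, was at 38.1, 39.3, 68.5 and 109 (1.49). In all 4 genes the doubly treated library was the highest.

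For CDH11, DPYSL3, FAM30A, EGFL7 and RTL1, also among the 15 highest, most of the difference was already present with siMYCN alone. CDH11, a mesenchymal cadherin, was at 8.03, 9.98, 29.4 and 33.6 (1.94), and DPYSL3, a cytoskeletal protein of growing neurites, at 97.2, 101, 246 and 287 (1.55). FAM30A was at 35.4, 36.2, 81.7 and 98.9, and EGFL7, a secreted protein of blood vessels, at 31.0, 39.0, 67.7 and 83.0. RTL1, a retrotransposon-derived imprinted gene, was at 23.6, 28.4, 62.8 and 60.7, and its let-7a value in siMYCN cells was close to 0. C12orf57 and CAMK2N1, an inhibitor of CaM kinase II, had combined values of 1.64 and 1.35, with 0.52 and 0.36 for let-7a alone and 1.22 and 0.88 for siMYCN alone. SATB1, a chromatin organiser, had 1.35, with a larger value for let-7a alone (1.02) than for siMYCN alone (0.79). RPS3A, at 8.91, 20.1, 26.8 and 30.6, is a ribosomal protein gene with many near-identical pseudogenes, so its value is uncertain.

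**Figure D2:**
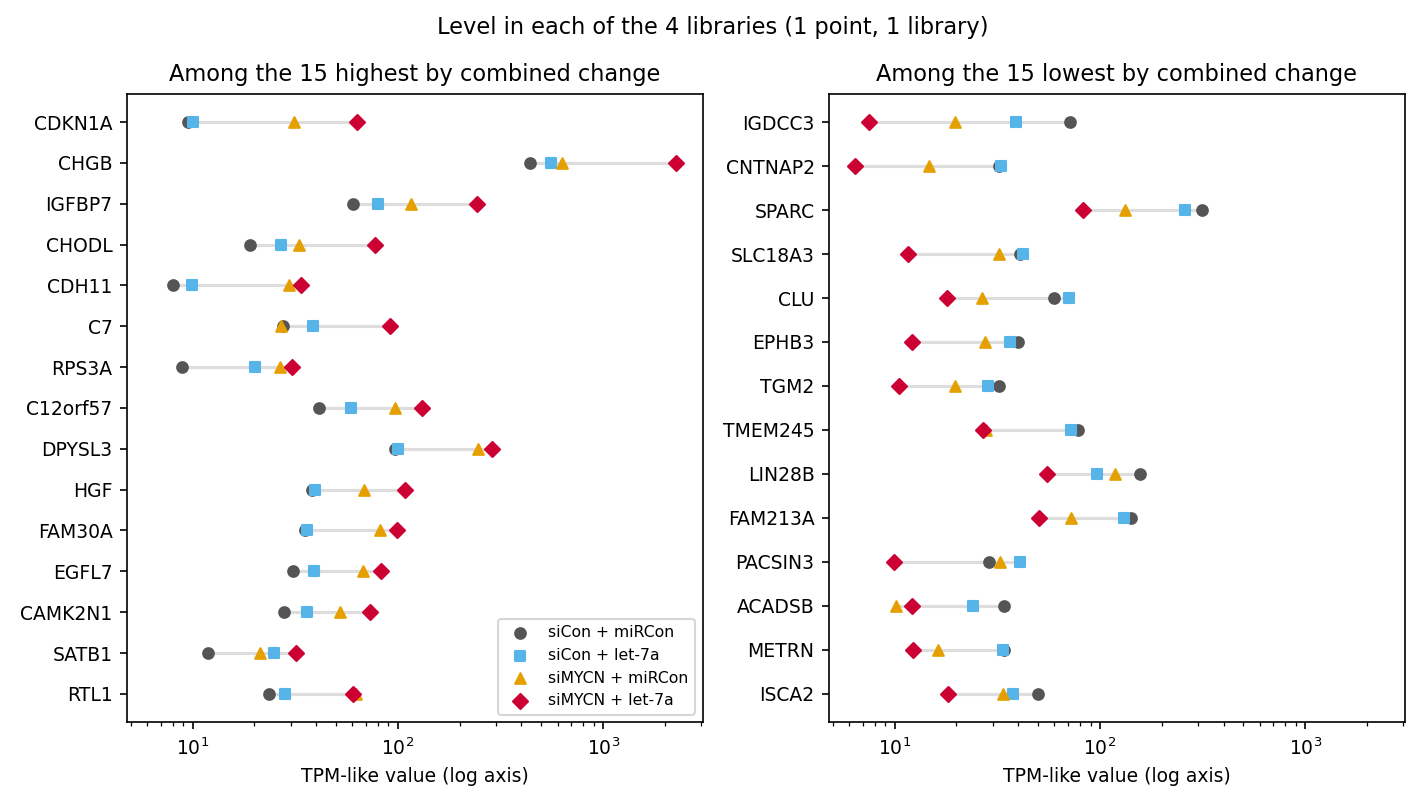
TPM-like level (log axis) of genes among the 15 highest and the 15 lowest by combined value in each of the 4 libraries, 1 point a library. The red diamond, siMYCN with let-7a, is at the end of the range for CHGB (2275) and CDKN1A (63.1) on the left and for IGDCC3 (7.54) and SLC18A3 (11.6) on the right, while for TMEM245 it lies on top of siMYCN alone.

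Among the lowest genes were some of adhesion and of the matrix. CNTNAP2, a neurexin-family adhesion protein of axons, was at 32.1, 33.1, 14.6 and 6.44, a combined value of -2.16 that lay -1.11 below the sum. SPARC, a secreted matrix glycoprotein, was at 313, 259, 132 and 82.2 (-1.92), the largest lower value among genes with a mean above 50. In both genes the siMYCN library was already lower and the doubly treated library lower again.

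SLC18A3, the vesicular acetylcholine transporter, differed in this respect, at 40.6, 42.0, 32.1 and 11.6 (-1.73). EPHB3, a receptor tyrosine kinase for ephrins, was similar, at 39.9, 36.5, 27.6 and 12.1 (-1.64). Neither was past 1.5-fold with either agent alone. CLU, a secreted chaperone, and TGM2, a transglutaminase, had combined values of -1.68 and -1.53. TMEM245, a membrane protein gene that hosts a miRNA, was at 77.7, 72.2, 27.7 and 26.9, so adding let-7a to siMYCN went with almost no further difference. PACSIN3, ACADSB, METRN, ISCA2 and FAM213A, with roles from endocytosis to fatty acid breakdown, had combined values from -1.41 to -1.48.

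In the abundant range, above a mean of 200, 7 of 493 genes (1.42%) were past 2-fold higher and 2 (0.406%) lower. The shares over all genes were 1.06% and 0.829%. These abundant genes were named after their values were seen. Besides CHGB they included H3F3A, a gene for the replacement histone H3.3 with many processed copies, at 525, 568, 1088 and 1257. PTN, a heparin-binding neurite growth factor, was at 198, 232, 379 and 444, and CALU, a calcium-binding protein of the secretory pathway, at 137, 131, 307 and 333. TOMM20, an import receptor of mitochondria, RPL34 and VGF made up the rest. The lower genes were STOM, a membrane scaffold protein, at 349, 333, 162 and 144, and CRABP2, which carries retinoic acid to its nuclear receptor, at 531, 505, 358 and 249.

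Genes of dense-core granules and prohormone processing were higher as a group. Of 11 measured members 10 were above 0, 7 were at least 1.5-fold higher and 0 lower, with a median of 0.75 beside 0.014 over all genes and 5.04% of all genes at least 1.5-fold higher. The list's medians were 0.44 for siMYCN alone and 0.047 for let-7a alone. CHGA, chromogranin A, was at 687, 847, 489 and 1157: the siMYCN library was the lowest of the 4 and the doubly treated library the highest, a departure from the sum of 0.94. VGF, a secreted neuropeptide precursor, was at 179, 181, 353 and 437 (1.28). PCSK1N, the precursor of an inhibitor of prohormone convertase, was at 149, 188, 154 and 274 (0.87).

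PAM, the enzyme that amidates peptides, was at 18.1, 18.7, 28.8 and 33.5 (0.85), and SCG2, secretogranin II, at 717, 717, 930 and 1086 (0.60). BEX1, a small neuronal adaptor placed in the same list, was at 326, 342, 442 and 608 (0.90). GAL, the galanin precursor, was the member below 0, at 120, 141, 66.7 and 86.1. NPY, the neuropeptide Y precursor, behaved unlike CHGB: it was at 398, 399, 1132 and 514, so the peak with siMYCN alone was not present with both agents. In bulk RNA, a change in the share of cells of a kind and a change of RNA per cell cannot be told apart.

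Of the catecholamine genes, 0 of 6 measured members were at least 1.5-fold higher or lower, beside 5.04% and 4.35% of all genes. With 6 genes such a count says little. Of the 6, 5 were above 0. Their median was 0.28, or 0.17 with no filter on low values, beside 0.014 over all genes. DBH, which makes noradrenaline, was at 415, 475, 346 and 390. CYB561, the granule cytochrome that supplies electrons to DBH, was the highest at 0.53, with 104, 105, 131 and 151. Below the filter, SLC18A2, the vesicular monoamine transporter, was at 9.44, 10.0, 4.13 and 1.80, and the serotonin receptor subunit HTR3A at 9.76, 10.7, 1.27 and 0.66.

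The noradrenergic transcription factors split. Of 17 measured, 4 were at least 1.5-fold higher and 3 lower, beside 5.04% and 4.35% of all genes, with a median of -0.041. The lower members included ISL1, a LIM homeodomain factor, at 128, 116, 88.3 and 65.1, and HAND1, at 417, 364, 346 and 240. The higher members were SATB1, DACH1, TFAP2B and GATA2, the last at 406, 446, 513 and 679. PHOX2A, a homeodomain factor of the same circuit, was nearly level at 579, 644, 566 and 582. Neither direction was shared by the circuit as a whole.

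Neurite and neuronal cytoskeleton genes also went both ways, with 3 of 25 at least 1.5-fold higher and 4 lower, beside 5.04% and 4.35% of all genes. Their median was -0.024, and 0.18 at a mean of at least 50. DPYSL3 and the tubulins TUBA1A (215, 224, 277 and 364) and TUBB3 (147, 155, 166 and 231) were higher. BASP1, a growth cone membrane protein, was at 221, 200, 160 and 118, and NEFH, the heavy neurofilament, at 43.6, 42.7, 20.1 and 22.9. GAP43, a growth cone protein, had a combined value of -0.64. STMN2, a microtubule regulator of growing axons, stood at 393, 397, 203 and 352, so the low value with siMYCN alone was not seen with both agents.

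Replication genes leaned lower, and more so than either agent alone. Among the MCM helicase and its loaders, 16 of 17 were below 0, beside 48.1% of all genes. Their median was -0.37 against -0.16 for siMYCN alone and -0.013 for let-7a alone. Of the 17, 4 were at least 1.5-fold lower, beside 4.35% of all genes. CDT1, which loads the helicase, was at 54.8, 56.8, 48.6 and 25.2 (-1.09), with the doubly treated library well below the other 3. MCM6, a helicase subunit, was at 93.4, 88.0, 68.4 and 59.9 (-0.63), and CDC7, the kinase that fires origins, at 37.8, 37.4, 25.6 and 22.5 (-0.72). The combined value lay below the sum in 16 of the 17 genes, at a median of -0.16, where the median over all genes was -0.018. Over all genes, 46.6% of combined values lay above the sum.

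The wider G1/S list, which shares 5 measured members with the helicase list, had 33 of 40 below 0, beside 48.1% of all genes. Its median was -0.31, where the single medians were -0.067 for siMYCN and -0.026 for let-7a. Of the 40, 2 were at least 1.5-fold higher and 4 lower, beside 5.04% and 4.35% of all genes. The departure was below 0 in 32 of the 40, where 46.6% of all genes had one above 0. CHAF1B, a chromatin assembly factor, was at 33.6, 33.2, 30.5 and 19.9 (-0.73), and GINS4, of the active helicase, at 29.3, 29.4, 27.1 and 17.3 (-0.73). CCNE1, the cyclin E1 gene, was among the exceptions at 22.1, 24.5, 34.5 and 37.8 (0.75). Mitotic genes were closer to 0, with a median of -0.17 and 40 of 53 below 0, beside 48.1% of all genes. Of the 53, 5 were at least 1.5-fold lower (4.35% of all genes were). They included AURKA, a spindle kinase that also binds MYCN protein, at 31.2, 31.4, 23.6 and 16.3.

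The inhibitors of cell cycle kinases were mostly unchanged in size apart from CDKN1A. CDKN2A was at 39.0, 42.1, 41.9 and 53.2 (0.44) and CDKN1B, which encodes p27, at 90.7, 103, 103 and 99.95 (0.14). CDKN1A is also the best known p53 target. Of 29 listed p53 targets 10 were measured, CDKN1A among them. Their median was -0.17 (-0.097 with no filter on low values), with 7 below 0. Whether p53 had a part in these values was not tested. MDM2, the ubiquitin ligase of p53, was at 47.8, 44.5, 21.6 and 18.7 (-1.31), with nearly all of this in siMYCN alone (-1.11). GADD45A, a stress-response gene, was at 36.3, 41.8, 39.0 and 25.7, and TP53I3 had a combined value of -0.77.

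MYC-activated growth genes had a median of -0.19, with 25 of 32 below 0, beside 48.1% of all genes. Of the 32, 3 were at least 1.5-fold lower and 0 higher, beside 4.35% and 5.04% of all genes. These 3 were MDM2, MCM6 and CAD, which starts pyrimidine synthesis and was at 100, 91.4, 61.4 and 62.1. CDK4, a G1 kinase, was at 89.4, 73.0, 110 and 113 (0.33), and ODC1, the first enzyme of polyamine synthesis, at 243, 239, 295 and 340 (0.48). Genes reported as repressed by MYCN were divided, with 4 of 11 at least 1.5-fold higher (CDKN1A, DKK1, EGR1 and SCG2) and 2 lower (CLU and TGM2), beside 5.04% and 4.35% of all genes. CDKN1A passed the filter only through the siMYCN libraries, at 9.55 with both controls and 10.1 with let-7a alone. The median of the list was 0.23, and 0.49 at a mean of at least 5. DKK1, a secreted inhibitor of WNT signalling, was at 50.9, 53.9, 214 and 117, so its highest value was with siMYCN alone.

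Genes switched on by ERK signalling, some of which damp the pathway, were above 0 in 12 of 13 cases, beside 51.9% of all genes. Their median was 0.41, and 4 were at least 1.5-fold higher, beside 5.04% of all genes. At a mean of at least 50 the median was 0.26. SPRY4, an inhibitor of RAS activation, was at 30.05, 32.8, 54.8 and 74.4 (1.28), and DUSP4, a nuclear ERK phosphatase, at 26.9, 29.1, 45.7 and 51.5 (0.91). The median with siMYCN alone was 0.42 and with let-7a alone 0.019. EGR1, an immediate early transcription factor, was different, at 21.4, 30.8, 22.1 and 48.0, past 2-fold with both agents and under 1.5-fold with each alone. Its departure of 0.58 still lay within 1.5-fold of the sum. DUSP6, the cytoplasmic ERK phosphatase, did not pass the filter, at 3.51, 4.10, 21.7 and 25.95.

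Ribosomal protein genes of the cytosol were above 0 in 65 of 73 cases, beside 51.9% of all genes. Their median was 0.32 against 0.25 for siMYCN alone and 0.068 for let-7a alone. Of them 8 were at least 1.5-fold higher (11.0%, beside 5.04% of all genes) and 1 lower. RPL34 was at 365, 402, 709 and 842 (1.202), and RPL37 at 289, 327, 436 and 531 (0.88). Many of these genes have near-identical pseudogenes, so the division of reads between copies is uncertain. The 13 mitochondrial genome transcripts, whose total is smaller in both siMYCN libraries, had a median of -0.091. Of these 13 transcripts 0 were at least 1.5-fold higher or lower, beside 5.04% and 4.35% of all genes. Their part in the ribosomal values, which are shares of the same total, was not tested.

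Adhesion and guidance genes included some of the widest differences. CDH2, the neural cadherin, was at 108, 112, 169 and 228 (1.07). Of 8 measured genes of the cadherin list, 2 were at least 1.5-fold higher and 2 lower, beside 5.04% and 4.35% of all genes. The higher were CDH2 and CDH11, and the lower CDH24 (-0.75) and PCDH1 (-0.70). CDH11 passed the filter only through the siMYCN libraries, at 8.03 with both controls and 9.98 with let-7a alone. UNC5A, UNC5B and RGMB, receptors or ligands that steer axons, had combined values of 0.96, 0.76 and 0.69, while EPHB3, SEMA3F and SLIT3 had -1.64, -0.90 and -0.52. Of 16 matrix and integrin genes, 2 were past 2-fold lower, beside 0.829% of all genes. These were SPARC and COL5A1, a fibrillar collagen at 43.5, 42.6, 28.9 and 16.1. TIMP1, an inhibitor of matrix proteases, was the highest of the 16 at 0.68. In the Notch pathway, HES6, a neuronal HES factor that opposes HES1, was at 41.4, 37.2, 34.4 and 19.8 (-1.02), whereas RBPJ, the DNA-binding partner of Notch, had 0.97 and HES1 0.65.

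**Figure D3:**
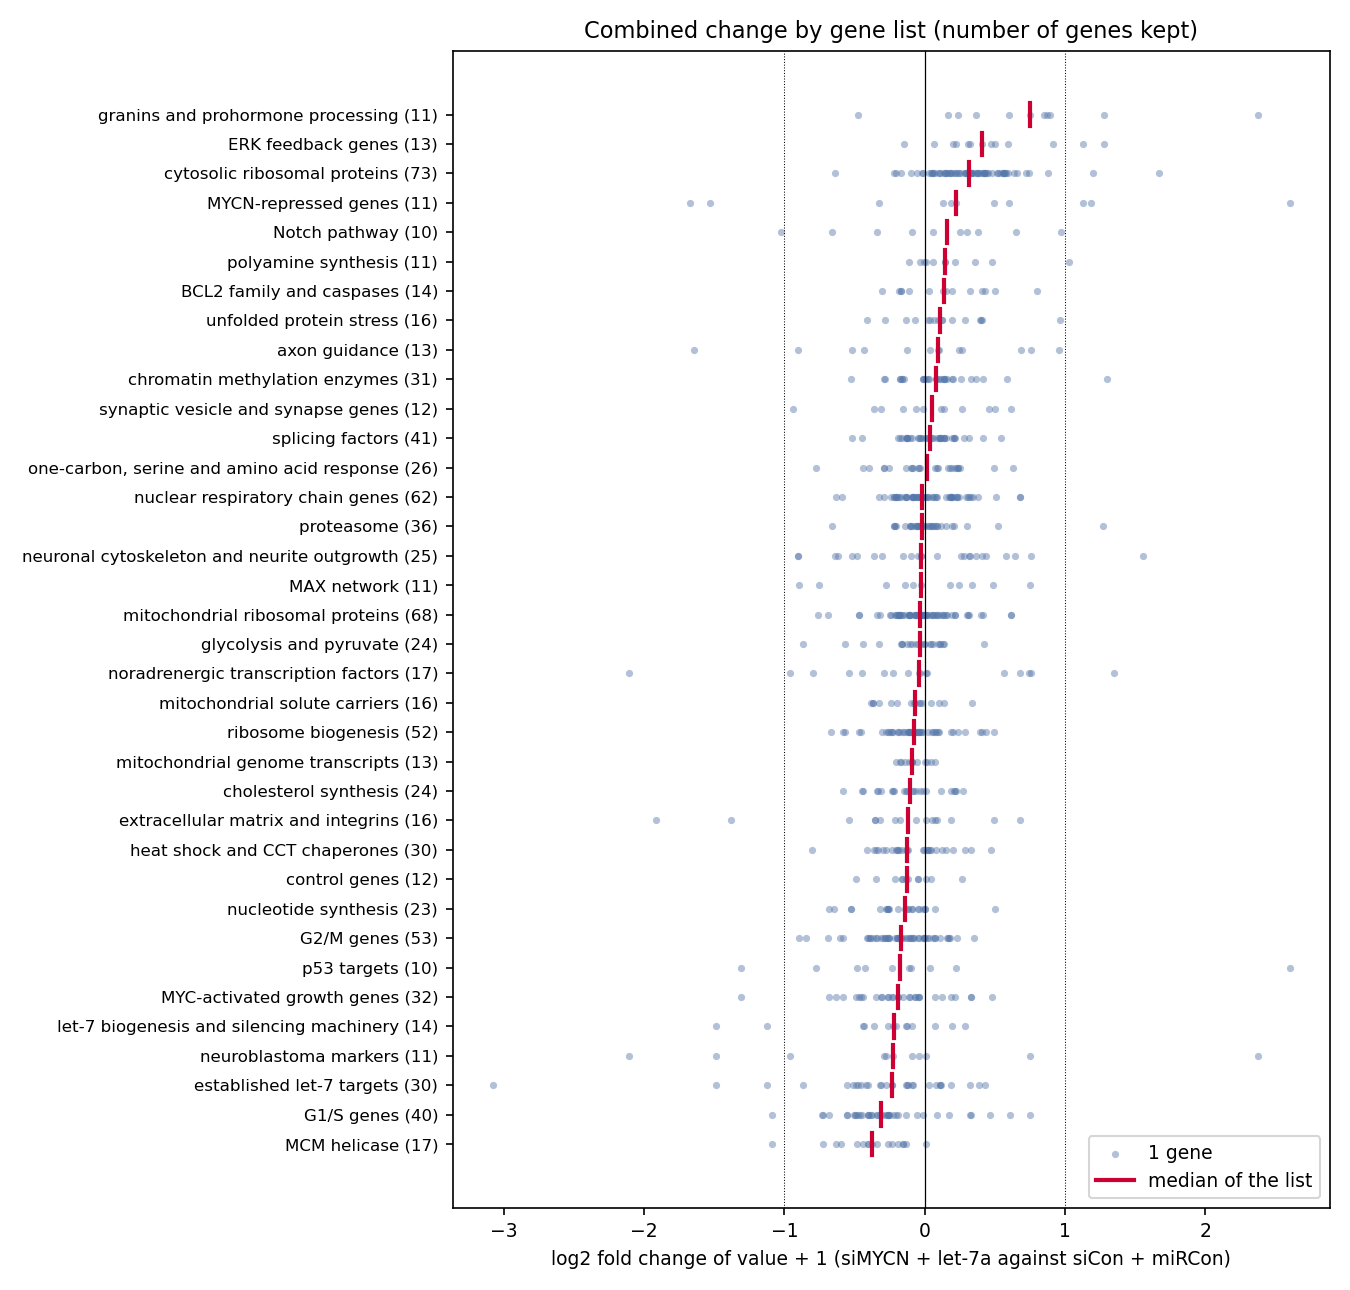
Combined log2 fold change of value + 1 for each measured member (1 point a gene) of the gene lists with at least 10 measured members, ordered by the list median (red bar). Granin genes are at the top with a median of 0.75 and the MCM helicase genes at the bottom with -0.37, while most lists straddle 0; dotted lines mark 2-fold.

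The next question was whether both agents together gave what adding them would. The departure, the combined value minus both single values, had a median of -0.018 and a middle 95% from -0.62 to 0.53. At least 2-fold above the sum lay 10 genes (0.176%), and 19 (0.335%) lay as far below it. The spread was wider for low genes, from -0.69 to 0.62 where the mean was 20 to 50, and from -0.44 to 0.32 above 200. Of the 60 higher genes 41 lay within 1.5-fold of the sum, 16 beyond it and 3 short of it. Of the 47 lower genes 33 lay within 1.5-fold of it, 13 beyond and 1 short. Genes chosen for a large combined value are pushed toward a departure of the same sign, so these counts are a description only.

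The siMYCN change was the larger single change for 55 of the 60 higher and 44 of the 47 lower genes. It was at least 2-fold by itself in 19 and 17 of them, and let-7a alone was in 2 (RPS3A and SATB1) and 0. For 13 higher and 15 lower genes neither agent alone reached 1.5-fold. Those among the higher genes included CHGB, C7 and EGR1 and those among the lower DICER1, CDT1, EPHB3, SLC18A3, PACSIN3, HES6 and COL5A1.

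CHGB had the highest departure of all, at 1.497, far outside the range for genes of its level. It was followed by FRMD6, a FERM-domain protein upstream of Hippo signalling, C7, the zinc finger gene ZNF428, KRTCAP2 and MBD2, a reader of DNA methylation. These last were of 2 kinds. C7 and ZNF428 (24.2, 22.5, 27.4 and 58.6) were near the control level with each agent alone or somewhat above it, and highest with both. FRMD6 was at 43.9, 22.9, 29.4 and 37.8 and MBD2 at 26.5, 15.2, 19.5 and 24.7, so each agent alone went with a lower value and both together with one near the controls.

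PACSIN3, an endocytic adaptor, had the lowest departure, -2.11, at 28.8, 40.7, 32.6 and 9.88. RPL8 followed with -1.92, at 38.1, 60.7, 59.2 and 24.1, a value open to the same doubt as other ribosomal protein genes. IST1, a membrane-remodelling protein, was at 15.9, 28.5, 23.7 and 12.1, and SEC11A, a subunit of the signal peptidase, at 31.0, 52.9, 57.1 and 36.8. CALML4, a calmodulin-like protein, was at 15.4, 23.6, 29.4 and 15.6, no different with both agents than with neither (0.016). Apart from SLC18A3 (-1.44), the 6 lowest departures belonged to genes that were above the control value with each agent alone and near or below it with both. Choosing genes by a high or a low departure itself favours such patterns, so they are a description only.

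**Figure D4:**
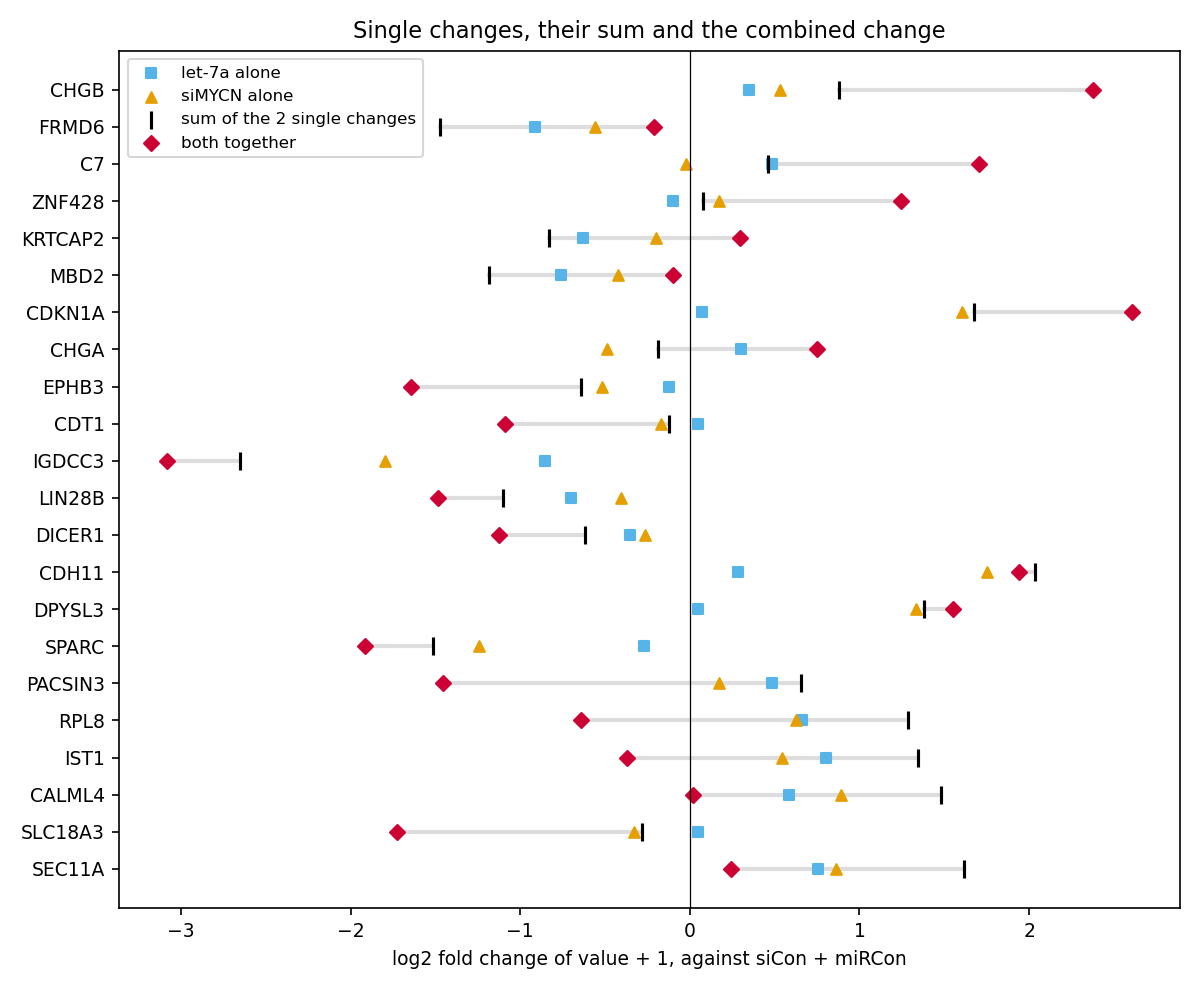
Log2 fold change of value + 1 against siCon with miRCon for let-7a alone, siMYCN alone and both agents, with the sum of both single changes as a black tick, for selected named genes and 1 library a group. The grey bar is the departure: it is long for CHGB (1.497) and PACSIN3 (-2.11) and short for CDH11 (-0.09) and DPYSL3 (0.17).

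Genes were then sorted by the best let-7 site in their 3′ UTR, searched on the mRNA strand in the longest annotated 3′ UTR. The classes are 8mer (CTACCTCA), 7mer-m8 (CTACCTC) and 7mer-A1 (TACCTCA), each gene being counted once under its best class. The 235 genes with an 8mer had a median combined value of -0.094, with 62.1% below 0. The 4533 genes with no site had 0.022 and 46.9%. With no filter on low values both medians were 0.0000, a setting that cannot compare them because rows at 0 in both libraries tie at exactly 0. With siMYCN alone, where no let-7a was given, the medians were -0.0044 for 8mer genes and 0.069 for genes with no site. With let-7a alone they were -0.049 and -0.010. The lower 8mer median was thus partly present without the mimic, and the part of each agent was not tested. The medians of the 411 7mer-m8 genes and the 435 7mer-A1 genes were 0.0014 and -0.025. Genes with an 8mer also had longer 3′ UTRs, a median of 3707 bases against 1360 without a site, and the part of length was not tested. At 1.5-fold, 7.23% of 8mer genes were lower and 5.11% higher.

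An 8mer was present in 2 of 46 lower genes (4.35%) and in 4 of 58 higher genes (6.90%), beside 4.19% of all genes with a 3′ UTR. The lower genes were IGDCC3 and LIN28B, and the higher ones CDKN1A, BEGAIN, RPL34 and ZNF792. The 8mer of CDKN1A, the highest gene, lies at chr6:36686727-36686750 on the plus strand and is shown because its gene went against the direction of let-7 targets.
CDKN1A site 1: gaagggcaccctagttCTACCTCA

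**Figure D5:**
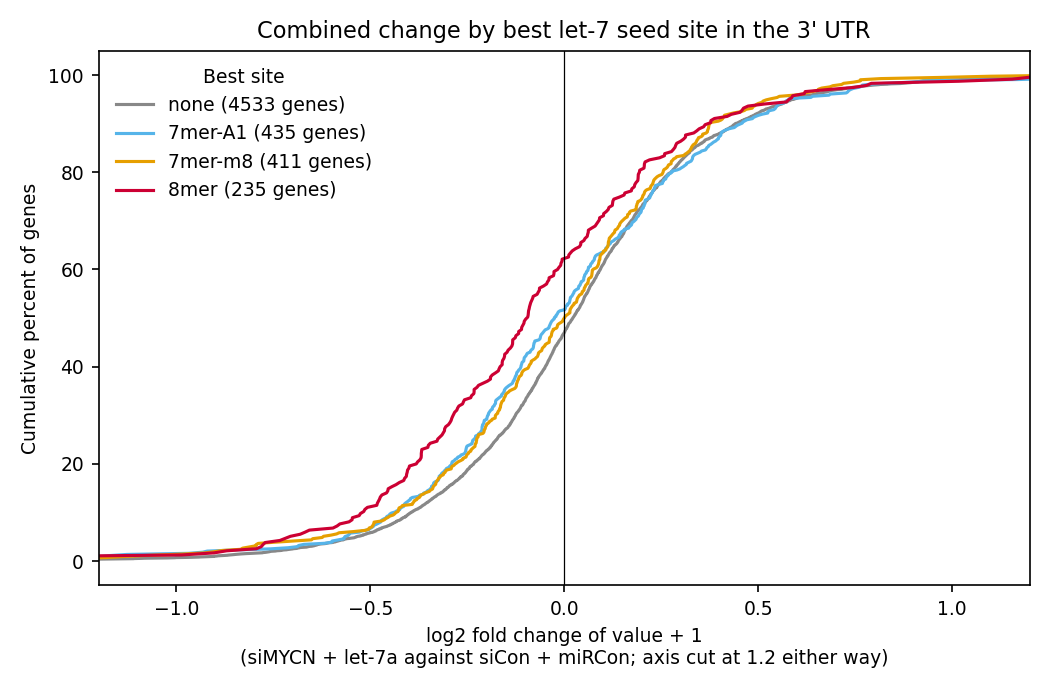
Cumulative percent of genes by combined log2 fold change of value + 1, for the best let-7 site class in the 3′ UTR (235 genes with an 8mer, 411 with a 7mer-m8, 435 with a 7mer-A1, 4533 with none). The 8mer curve lies to the left of the others over most of the range, reaching 62.1% at 0 where genes without a site reach 46.9%.

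The E-box CACGTG, the same on both strands, was searched in RefSeq promoter windows from 250 bases before to 50 bases after the start. It was present in 7.26% of all 35116 windows and in 11.4% of the 4568 measured genes with a window. Of genes at least 2-fold lower 1 of 36 (2.78%) held it, and of those at least 2-fold higher 6 of 49 (12.2%). The median combined value was 0.016 with the word and 0.020 without it. A match is only a match of letters in this window.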

How the data were processed

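Polyadenylated RNA of BE(2)C:MYCN-ORF cells was sequenced in 4 libraries, 1 a group, with groups taken from the sample labels. The authors deposited 1 table of 19837 rows holding natural log values, a column for each library. No source states the base. It was inferred from the column totals of exp(x) - 1, which lay between 855811 and 862049 (base 2 gives 143211 to 147588). HISAT 0.1.6, Salmon 0.3.2 and GRCh38 are named, with no role, in the submitters' processing notes. Annotation and log step were not given in the sources used here.

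Vector rows (11) were set apart, and 28 rows named as dates were counted but not named. Log2(value + 1) differences were computed for genes with a mean of at least 20, counted at 2-fold and 1.5-fold, and no test was made. Gene positions and 3′ UTRs came from GENCODE release 29 (18700 rows matched by symbol and 521 by a RefSeq synonym), and 5614 of the kept rows (99.0%) had a 3′ UTR. Python 3.11.15, pandas 2.3.3 and NumPy 2.4.6 were used, after the scripts were tested on simulated data.

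Named genes were the 15 highest and 15 lowest combined values, the 6 highest and 6 lowest departures, up to 6 members of each of 51 lists, and 18 genes named whatever their values. The members and lists were chosen with earlier results of these data known. Some genes that the rule names are not reported here. Genes outside this rule that appear as list members or as examples were chosen after their values were seen.

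The alternatives were pseudocounts of 0.1 and 5, a mean of at least 5 or 50, no filter, 1.5-fold and 3-fold, rescaling by median ratios and another choice of 3′ UTR.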

Additional observations from a re-analysis of the deposited data

Results flagged for a closer look

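The genes CALML4, IST1, RPL8 and SEC11A went one way with an agent in one background and the opposite way in the other. All 4 genes were among the 6 lowest departures, and choosing by departure itself favours such opposed signs. Each effect rests on 1 pair of libraries, and the difference between the pairs was not tested. The let-7a change in siMYCN cells was -0.88 for CALML4, -0.91 for IST1, -1.26 for RPL8 and -0.62 for SEC11A, where in siCon cells it was 0.59, 0.80, 0.66 and 0.75. For RPL8 the siMYCN change was also opposed, -1.30 with let-7a against 0.62 with miRCon. The mean levels of these genes over the 4 libraries were between 20.1 and 45.5, in the range where departures were widest.

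A row of the table that names a kanamycin selection marker, a vector sequence outside the gene rows, had a level of 225.3 with siMYCN and let-7a. With both controls it was 195, with let-7a alone 221 and with siMYCN alone 196, so both let-7a libraries were the higher ones.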

How the results depend on the processing

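The counts of genes depended on the filter and on the fold size. In the order 2-fold higher, 2-fold lower, above the sum and below the sum, the reported counts were 60, 47, 10 and 19. They were 183, 136, 108 and 115 at a mean of at least 5, 22, 14, 1 and 3 at a mean of at least 50, and 373, 272, 380 and 392 with no filter. At 1.5-fold they were 286, 247, 102 and 163, and at 3-fold 8, 7, 0 and 3. With a pseudocount of 5, the counts above and below the sum were 4 and 9. Rescaling moved the median of all genes by -0.012 and kept all 4 counts within 1.5 times, as did a pseudocount of 0.1. With no filter the medians of 8mer, 7mer-m8, 7mer-A1 and site-free genes were all 0.0000. Rows at 0 in both libraries tie at exactly 0, so that setting cannot show whether the 8mer median was lower. With rescaling the median was -0.11 for 8mer genes beside 0.0099 for site-free genes. With the other choice of 3′ UTR it was -0.11 beside 0.018. List medians changed sign in 16 of 284 cases: 3 at a mean of at least 5, 6 at a mean of at least 50, 6 with no filter and 1 with rescaling. In 14 of them the reported median lay within 0.1 of 0. In the other 2, both with no filter, interferon genes had 0.0070 (from -0.14) and Notch genes -0.061 (from 0.16), and the cause was not tested. At a mean of at least 50, neurite genes had 0.18 (from -0.024), cadherins 0.13 (from -0.018), axon guidance genes -0.045 (from 0.095), DNA methylation enzymes 0.042 (from -0.087) and imprinted genes -0.45 (from 0.014). No paired analysis was possible because the labels give no replicate numbers and each group has 1 library. Low genes are the limit: the depth is unknown, and 25 of the 29 genes past 2-fold from the sum had a mean under 50. Of all 5672 genes, 2972 did.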

Other observations

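Other named groups held some wide differences. IGF2, the imprinted growth factor, was at 2116 with both controls, 2030 with let-7a alone, 2103 with siMYCN alone and 1456 with both, a combined log2 fold change of -0.54 with the doubly treated library well below the other 3. PEG10, a retrotransposon-derived imprinted gene, was at 216, 207, 181 and 147 in the same order. NDN and SGCE, imprinted as well, were higher, at 0.52 and 0.54. MCL1, which blocks cell death, had the highest value of 14 measured genes of the BCL2 and caspase list, at 93.2, 99.3, 137 and 163 (0.80), and XIAP, an inhibitor of caspases, the lowest (-0.30). PDIA4, a folding enzyme of the endoplasmic reticulum, was at 108, 108, 191 and 212 (0.97), while the list of unfolded protein stress genes had a median of 0.11 over 16 members.

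Of 12 measured synaptic genes, 1 was at least 1.5-fold higher and 1 lower, beside 5.04% and 4.35% of all genes. The higher was SYT11 (0.62). The lower was SYN2 (-0.94), a synaptic vesicle protein at 50.04, 51.5, 25.96 and 25.6. MXD4 and MXI1, which compete with MYC proteins for MAX, had combined values of 0.75 and 0.49, and MLX, a related partner, -0.76. OAZ1, which restrains polyamine synthesis, was at 32.7, 46.7, 80.6 and 67.8. KDM5B, a histone demethylase, was at 13.6, 17.6, 26.3 and 34.9 (1.30). PSMG4, a proteasome assembly factor, was at 39.6 with siMYCN alone and 40.04 with both agents (1.27), with the whole proteasome list at a median of -0.017. Genes often used as steady references had a median of -0.13 over 12 members, from -0.49 for TFRC to 0.27 for TBP.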
